A study of Rattus norvegicus with 10 samples.

Results

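The plasmin system and the matrix proteases were followed through 9 genes, taken by name from a table of 32883 features, in which each name stood on 1 feature. They are Plau, Plaur, Plat, Serpine2, Mmp2, Mmp14, Mmp9, Timp1 and Timp3, and 8 of the 9 had enough counts to be tested; Mmp9 had not. The libraries come from muscle of Sprague Dawley rats and carry the labels TZG (3), MPS (3) and NC (4). TZG libraries have "drug" in their titles and belong to a series on Tianhe Zhuifeng liquid extract, a herbal preparation, and MPS is myofascial pain syndrome, a condition with painful taut spots in skeletal muscle. The labels do not spell out NC or TZG, give no age, sex, muscle, dose or time, and leave unsaid whether TZG rats had the pain model and whether each library is a separate animal, so the p-values below measure the spread between these samples only.

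Plasminogen circulates as an inactive precursor and is cut to plasmin, a broad protease, by the urokinase (Plau) and tissue-type (Plat) activators. Urokinase works at the cell surface on its receptor (Plaur), and the serpin protease nexin-1 (Serpine2) blocks both activators as well as plasmin and thrombin. Plasmin in turn cuts fibrin, laminin and fibronectin and helps to activate matrix metalloproteinases, whose activity the TIMP proteins hold back. In injured skeletal muscle of mice, urokinase is known to be needed for regeneration, and the gelatinases Mmp2 and Mmp9 take part in remodelling the sheath around fibres.

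Library totals ran between 12616160 and 18179144 counts, and genes of the mitochondrial genome took 9.71% to 38.6% of them. MPS 14 stood apart from the other 9 libraries: Glycam1, a lymph node vessel mucin, was at 1559.7 CPM there (each gene's counts scaled to a common library total) and at 0 elsewhere, the B cell gene Ms4a1 was at 262.6 CPM against at most 0.442, and skeletal actin (Acta1) was at 2320.3 CPM against a median of 41947.5. Each comparison with MPS is therefore given with and without MPS 14. Fold changes come from edgeR on TMM-scaled counts. Scaling by library totals alone set the median log2 fold change over all genes at -0.39 for TZG against NC, where TMM gave 0.02, and at -0.30 for MPS against NC without MPS 14, where TMM gave -0.02. Overlap between groups was therefore judged on TMM-normalised CPM.

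The promoters of Plau, of its receptor Plaur and of its inhibitor Serpine2 are shown because Plau is the member that passed a test, and these genes encode the proteins that bind urokinase directly. RefSeq promoters of the GRCr8 assembly, each with 250 bases before and 50 after the gene's start, were at hand for 5 of the 9 members (Plau, Plaur, Serpine2, Timp1 and Timp3). Plau lies at chr15:3511938-3512237 on the minus strand, Plaur at chr1:89181113-89181412 on the plus strand and Serpine2 at chr9:88637153-88637452 on the minus strand. Capitals mark matches on either strand to the letters GGGCGG (Sp1), AGGAAG (ETS) and TGANTCA (AP-1, which reads the same on both strands), where neighbouring matches may share bases.
Plau: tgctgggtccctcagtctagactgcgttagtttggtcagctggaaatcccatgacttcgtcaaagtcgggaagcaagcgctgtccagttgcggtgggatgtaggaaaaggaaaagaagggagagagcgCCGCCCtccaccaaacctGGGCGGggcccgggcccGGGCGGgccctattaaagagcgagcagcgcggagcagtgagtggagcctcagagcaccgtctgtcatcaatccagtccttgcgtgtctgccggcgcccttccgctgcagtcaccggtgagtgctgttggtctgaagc
Plaur: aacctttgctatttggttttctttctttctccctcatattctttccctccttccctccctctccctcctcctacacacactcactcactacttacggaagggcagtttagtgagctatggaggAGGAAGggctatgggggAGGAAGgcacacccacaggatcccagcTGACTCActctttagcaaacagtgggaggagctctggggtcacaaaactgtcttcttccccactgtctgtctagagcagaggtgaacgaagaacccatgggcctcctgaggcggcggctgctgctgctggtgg
Serpine2: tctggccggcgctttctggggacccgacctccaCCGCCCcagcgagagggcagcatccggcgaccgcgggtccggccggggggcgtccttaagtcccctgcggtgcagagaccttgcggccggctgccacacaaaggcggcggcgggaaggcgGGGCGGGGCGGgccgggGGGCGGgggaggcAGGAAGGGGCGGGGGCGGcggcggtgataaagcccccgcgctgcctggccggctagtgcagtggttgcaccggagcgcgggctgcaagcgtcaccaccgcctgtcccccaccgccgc
The Plau window held 3 Sp1 matches and no AP-1 or ETS match. The Plaur window held 1 AP-1 match and 2 ETS matches and no Sp1 match, and the Serpine2 window held 6 Sp1 matches and 1 ETS match. Among 33469 RefSeq promoters of the same length, 33.1% held the Sp1 letters, 34.5% the ETS letters and 7.33% the AP-1 letters. Timp1 had 1 Sp1 and 2 ETS matches, and Timp3 had 3 Sp1 matches. These are matches of letters and not measured binding sites.

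Per gene length, the level order in NC muscle was Timp3, Serpine2, Timp1, Mmp2, Plat, Plau, Mmp14, Plaur and Mmp9. Deposited FPKM (counts scaled by gene length and library total) averaged 50.01 ± 9.79 for Timp3, 40.1 ± 7.02 for Serpine2, 30.5 ± 25.5 for Timp1, 29.2 ± 7.15 for Mmp2, 22.6 ± 1.07 for Plat and 22.1 ± 3.28 for Plau (SD, n = 4). Mmp14, Plaur and Mmp9 were the low members, at 3.25 ± 0.712, 2.43 ± 1.43 and 0.0915 ± 0.0747 FPKM. Neighbours in the run from Timp3 to Plau overlapped, as did Mmp14 and Plaur, whereas Plau stood clear above Mmp14 and Plaur above Mmp9. Relative to its mean FPKM, Plat had the smallest SD of the 9 genes in NC and Timp1 the largest, with 68.0 FPKM in NC 6 and 14.1 to 25.1 FPKM in the other NC libraries. In TZG the order of mean FPKM ran Mmp2 (23.8 ± 7.97), Serpine2 (23.5 ± 9.11), Timp3 (19.96 ± 11.3), Plat (13.9 ± 8.23), Plau (10.01 ± 4.02), Timp1 (8.09 ± 3.57), Mmp14 (4.93 ± 4.95), Plaur (2.20 ± 1.07) and Mmp9 (0.0488 ± 0.0385; SD, n = 3). In MPS it ran Timp3 (21.0 ± 9.92), Plat (19.6 ± 14.4), Serpine2 (17.0 ± 10.3), Timp1 (16.4 ± 12.5), Mmp2 (13.4 ± 3.07), Plau (7.25 ± 0.954), Mmp14 (3.99 ± 2.25), Plaur (2.90 ± 1.25) and Mmp9 (0.960 ± 1.64; SD, n = 3). Neighbours overlapped throughout in TZG down to Plaur, which stood clear above Mmp9, and in MPS all neighbours overlapped other than Mmp2 and Plau.

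The comparison of MPS with NC asks which of these genes differ in muscle labelled as the pain model. Plau, the urokinase activator (ENSRNOG00000010516, chromosome 15, 3644769 to 3650819; the genome build of the deposited positions is not given in the sources used here), was lower in MPS. It stood at 11.7, 13.9 and 15.2 CPM in MPS 10, 11 and 14, against 39.8, 33.5, 47.2 and 45.3 CPM in NC 4, 5, 6 and 7. All 3 MPS libraries lay below all 4 NC libraries. Without MPS 14, the log2 fold change of Plau was -1.41 ± 0.26 (its SE), which passed at an edgeR adjusted p of 0.0238. Plau fell to 13.5 ± 2.38 normalised CPM in MPS (SD, n = 2) against 35.9 ± 3.47 in NC (n = 4), a 2.66-fold lower level. With all libraries the log2 fold change was -1.62 ± 0.29, and the call was lost (edgeR adjusted p = 0.305).

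Plau was the 1 member of 8 tested that passed without MPS 14, where 2.64% of 13719 genes did, and in edgeR with 3 groups the call was made with MPS 14 left out. Leaving out any 1 of the other 6 MPS and NC libraries kept Plau lower, at -1.59 to -1.22, but took its edgeR adjusted p to between 0.0504 and 0.198. It passed in each of the 9 other alternatives without MPS 14, at edgeR adjusted p = 0.0479 and a log2 fold change of -1.70 when scaled by library totals alone. With all libraries edgeR called 0 of 8 members, where 0% of 13535 genes passed; 3 of the 8 had an unadjusted p under 0.05, as had 1453 of the 13535 genes, DESeq2 called 1 (Plau) and limma-voom 0.

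**Figure D1:**
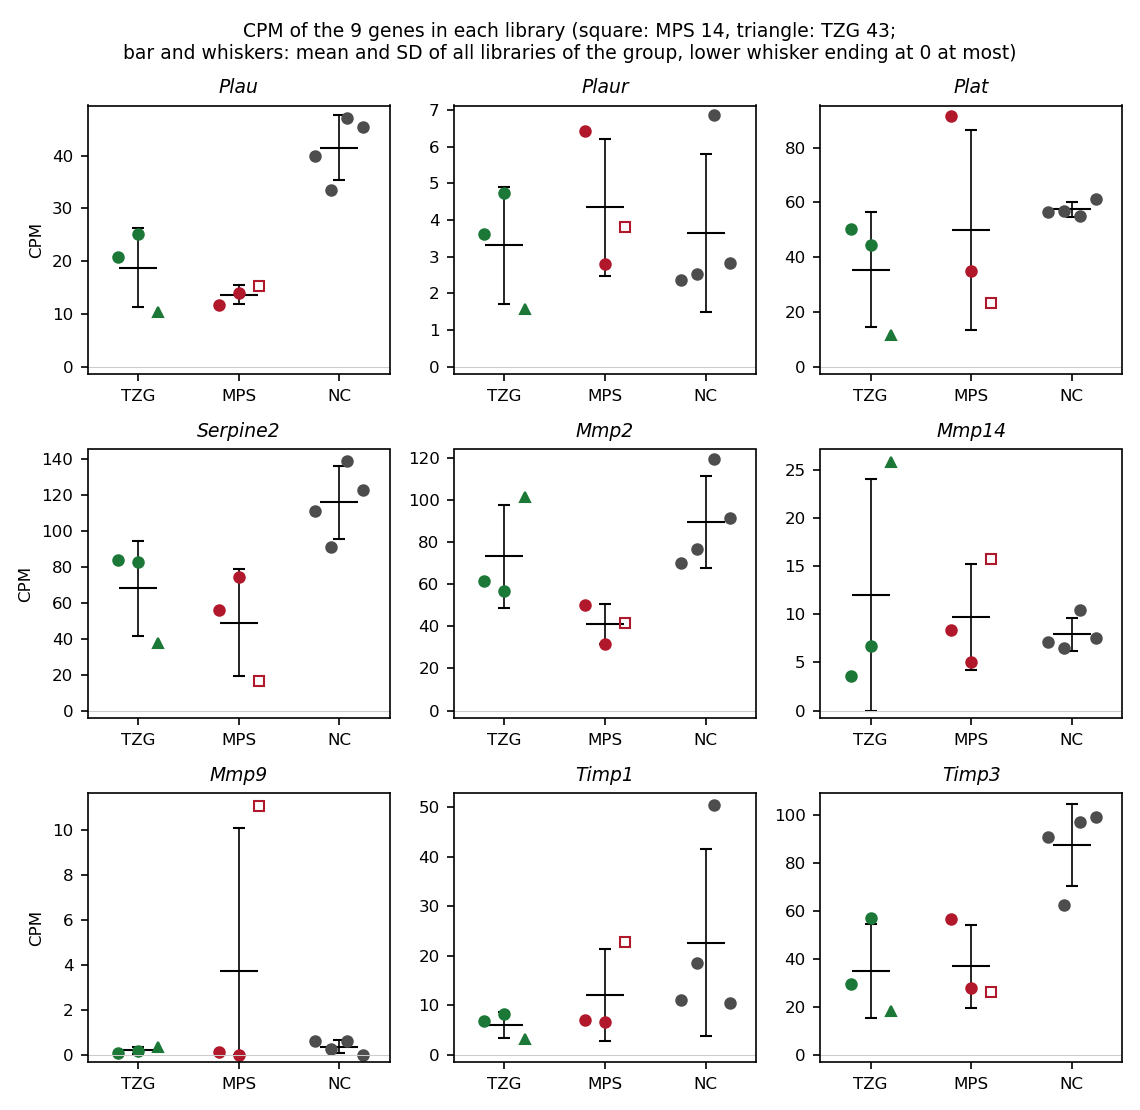
CPM of each of the 9 genes (vertical axis) in the TZG, MPS and NC libraries (horizontal axis), 1 point per library, with MPS 14 as an open square and TZG 43 as a triangle; bars and whiskers are the mean and SD of the group. Plau lies between 10.4 and 25.1 CPM in TZG and between 11.7 and 15.2 CPM in MPS, all below the NC libraries at 33.5 to 47.2 CPM, while Mmp14 is highest in TZG 43 and Mmp9 is seen mainly in MPS 14.

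Plaur, the urokinase receptor, overlapped between MPS and NC. It stood at 6.43, 2.81 and 3.81 CPM in MPS 10, 11 and 14, against 2.36, 2.54, 6.85 and 2.82 CPM in NC 4, 5, 6 and 7. MPS 10 and NC 6 were the high libraries of their groups, and the log2 fold change without MPS 14 was 0.63 ± 0.48 (edgeR adjusted p = 0.493), or 0.019 without MPS 10 as well. With all libraries it was 0.32 ± 0.51 (edgeR adjusted p = 0.844). The FPKM ratio of Plau to Plaur was 1.46, 3.95 and 3.20 in the 3 MPS libraries, against 13.5, 10.6, 5.51 and 12.8 in the 4 NC libraries. This ratio does not depend on how the libraries were scaled.

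Plat, the tissue-type activator that endothelial cells make, differed widely among the MPS libraries. It stood at 91.4, 35.0 and 23.1 CPM in MPS 10, 11 and 14, against 56.5, 56.8, 55.0 and 61.3 CPM in NC. MPS 10 lay above the NC range and the other 2 below it. The log2 fold change was 0.38 ± 0.45 without MPS 14 (edgeR adjusted p = 0.677) and -0.08 ± 0.59 with it (0.973); leaving out MPS 10 gave -0.36 and -0.99. Endothelial markers, 8 of 9 in the table, summed to 479.8 CPM in MPS 14 and to 913.3 to 1175.6 CPM in NC; their part in the low Plat of MPS 14 was not tested.

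Serpine2, the protease nexin that inhibits urokinase, stood at 55.9, 74.5 and 16.5 CPM in MPS 10, 11 and 14, against 110.7, 90.9, 139 and 122.7 CPM in NC. All MPS libraries lay below all NC libraries, with MPS 14 far below the others. The log2 fold change was -0.54 ± 0.27 without MPS 14 (edgeR adjusted p = 0.284) and -1.04 ± 0.58 with it (0.544), so the larger value rests on MPS 14. The FPKM ratio of Plau to Serpine2 was 0.323 and 0.287 in MPS 10 and 11 and 1.42 in MPS 14, against 0.523 to 0.569 in NC.

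Among the metalloproteinases, Mmp2, the gelatinase that cuts collagen IV, stood at 50.4, 31.5 and 41.5 CPM in MPS 10, 11 and 14, against 70.2, 76.7, 119.6 and 91.6 CPM in NC. The groups did not overlap. Its log2 fold change was -0.85 ± 0.34 without MPS 14 (edgeR adjusted p = 0.192) and -1.11 ± 0.38 with it (0.401). It passed in 1 alternative, a fit of MPS 10 and 11 and the NC libraries alone. That fit called 1277 genes, against 362 in the main fit without MPS 14.

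Mmp14, the membrane-bound enzyme that activates the Mmp2 precursor, stood at 8.36, 5.06 and 15.8 CPM in MPS and at 6.5 to 10.4 CPM in NC, with overlap and a log2 fold change of 0.04 ± 0.71 without MPS 14 (edgeR adjusted p = 0.986). That value turned to -0.24 when scaled by library totals alone. With all libraries the log2 fold change of Mmp14 was 0.13 ± 0.61 (edgeR adjusted p = 0.950). Mmp9, the gelatinase of neutrophils and macrophages, was counted 2, 0 and 151 times in MPS 10, 11 and 14, against 8, 3, 8 and 0 times in NC 4, 5, 6 and 7, and 1, 2 and 5 times in TZG 26, 27 and 43, too few to test. The 151 counts came with 6379 CPM of summed macrophage markers (12 of 12 in the table) and 7777.5 CPM of lymphocyte and lymph node markers (11 of 12) in MPS 14, against 102.3 to 614.8 and 2.92 to 21.1 CPM in the other 9 libraries. The part of these cells in Mmp9 was not tested.

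The inhibitors Timp1 and Timp3 were low in MPS 10 and 11. Timp1, a soluble inhibitor, stood at 6.91, 6.60 and 22.8 CPM in MPS 10, 11 and 14, against 11.1, 18.5, 50.3 and 10.4 CPM in NC. Only MPS 14 reached into the NC range, and the log2 fold change was -1.41 ± 0.58 without it (edgeR adjusted p = 0.210) and -1.10 ± 0.53 with it (0.488). Leaving out NC 6 gave -0.80 without MPS 14 and -0.47 with it. Timp3, an inhibitor bound to the matrix, stood at 56.8, 27.6 and 25.9 CPM in MPS 10, 11 and 14, against 90.9, 62.3, 97.0 and 99.4 CPM in NC. The groups did not overlap, and the log2 fold change was -0.79 ± 0.36 without MPS 14 (edgeR adjusted p = 0.238) and -1.16 ± 0.46 with it (0.432).

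Without MPS 14, 5 of 8 members did not overlap between MPS and NC, all lower in MPS, where 38.6% of all genes tested did not overlap in either direction. With MPS 14 it was 4 of 8, against 11% of all genes. The median log2 fold change of the 8 members was -0.66 without MPS 14 and -1.07 with it, beside -0.02 and 0.13 over all genes tested.

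**Figure D2:**
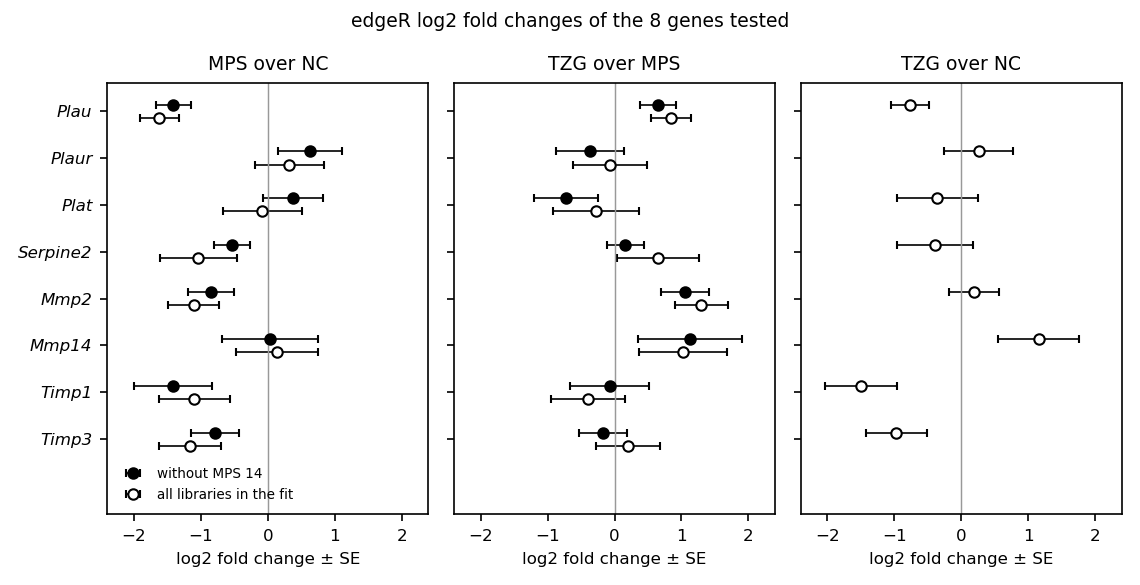
Log2 fold changes with SE from edgeR (horizontal axis) for the 8 members tested (vertical axis), for MPS over NC, TZG over MPS and TZG over NC. Filled points leave out MPS 14 and open points have all libraries in the fit; Plau stands at -1.41 and -1.62 for MPS over NC, at 0.65 and 0.85 for TZG over MPS and at -0.77 for TZG over NC.

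Markers of fibroblasts, which make much of the muscle matrix, and of macrophages were low in CPM along with Plau in MPS 10 and 11. So were markers of several other cell types. MPS 14 had high macrophage markers, and TZG 43 a high sum of fibroblast markers. The 12 fibroblast markers summed to 1384.1 and 1315.9 CPM in MPS 10 and 11, against 2344.3 to 4784.7 CPM in NC, and the 12 macrophage markers to 123.4 and 102.3 CPM, against 271.7 to 614.8 CPM. The mean of MPS 10 and 11 was 39.6% of the NC mean for fibroblast markers and 28.0% for macrophage markers, and 30.8% for Plau. Set against the fibroblast sum, Plau came to 0.845% and 1.05% in MPS 10 and 11 and to 0.987% to 1.70% in NC, which overlap. In MPS 14 it came to 0.446% and in TZG 43 to 0.210%, below every NC library. As log2 of normalised CPM over the NC mean, MPS 14 stood at -2.16 for Plau, -0.70 for fibroblast and 3.29 for macrophage markers. TZG 43 had the lowest Plau CPM and the highest fibroblast sum, 4968.6 CPM. Of that sum, Col1a1 made up 1899.2 CPM and Col3a1 1380.8 CPM, both above every NC library. In TZG 43 Pdgfra (14.4 CPM), Dcn (393.4 CPM) and Fbn1 (78.4 CPM) were below every NC library in CPM. The TMM factor was 0.695 in TZG 43 and 0.983 to 1.22 in NC. Once TMM-normalised, Dcn and Fbn1 of TZG 43 fell inside the NC range, and Pdgfra stayed below it. The part of any of these cell types in the fall of Plau was not tested. In bulk muscle, fewer cells of a type and less RNA per cell cannot be told apart. All 12 fibroblast markers were detected in every library, and 1 of the 12 macrophage markers was at 0 in each of TZG 26, MPS 11 and NC 7. The defining markers were low too, with Pdgfra at 6.79 and 10.1 CPM in MPS 10 and 11 and at 21.9 to 30.5 CPM in NC, and Cd68 at 3.27 and 2.15 against 5.65 to 25.3 CPM. Slow muscle fibre markers (9 genes) were high, at 1344% of the NC mean in MPS 10 and 11, and Schwann cell and nerve markers stood at 504%. The slow fibre markers were high in TZG 27 as well, at 3845.6 CPM, against 1697.2 and 3332.4 CPM in MPS 10 and 11. They summed to 150.8 and 167.3 CPM in TZG 26 and 43 and to 145.6 to 230.4 CPM in NC.

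**Figure D3:**
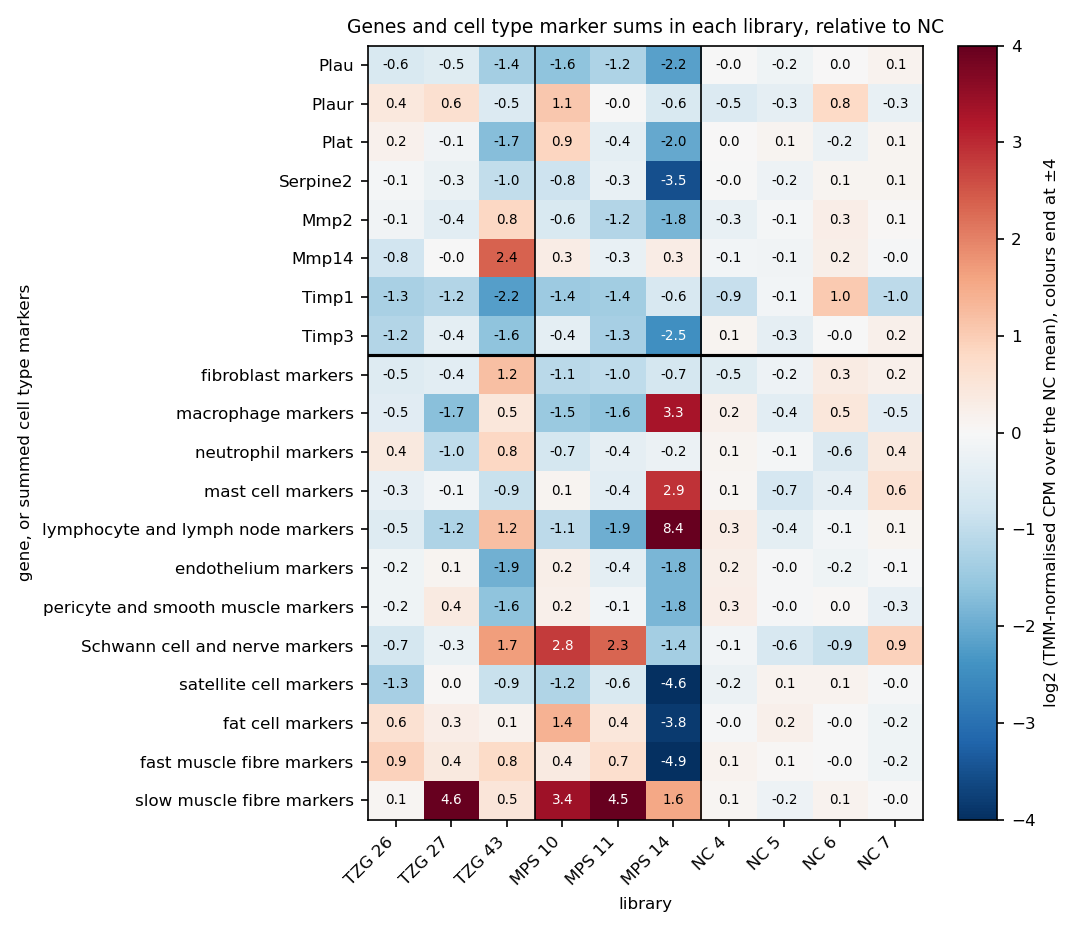
Log2 of TMM-normalised CPM over the NC mean (colour and printed value) for the 8 members and for summed markers of 12 cell types (rows) in each library (columns). Plau is below the NC mean in all TZG and MPS libraries, between -2.16 in MPS 14 and -0.49 in TZG 27; TZG 43 stands out with Mmp14 at 2.35, fibroblast markers at 1.20 and endothelial markers at -1.92.

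The neighbouring genes of the pathway, in lists written with earlier results of these data known, gave few calls. Without MPS 14, of 12 genes of plasminogen activation tested (17 listed), Plau alone passed, and the list's median log2 fold change was -0.17. Lrp1, the receptor that clears activators bound to inhibitors, stood at -0.49 (edgeR adjusted p = 0.288), and Mrc2, a collagen uptake receptor that binds urokinase and its receptor, at -0.61 (0.272). None of 11 clotting genes passed, with 10 of 11 lower and a median of -0.67, where 51.8% of all genes tested were lower. Tissue factor (F3), the starter of clotting, stood at -1.01 (edgeR adjusted p = 0.187).

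Of 9 metalloproteinases tested (22 listed), 2 passed and both rose, where 2.64% of 13719 genes passed and 307 of those 362 calls were higher in MPS. Mmp24, a membrane-type enzyme, stood at 24.2 and 21.9 CPM in MPS 10 and 11, against 8.98, 8.32, 10.5 and 5.35 CPM in NC, a log2 fold change of 1.75 ± 0.26 (SE; edgeR adjusted p = 0.0124). Mmp15, another membrane-type enzyme, stood at 51.8 and 52.6 CPM, against 35.3, 27.3, 40.1 and 27.6 CPM in NC, a log2 fold change of 0.96 ± 0.19 (edgeR adjusted p = 0.0311). In both genes the 2 MPS libraries lay above all NC libraries, whereas MPS 14 had 2.79 CPM of Mmp24 and 5.94 CPM of Mmp15, and with it neither passed (edgeR adjusted p = 0.548 and 0.848). Mmp15 passed in none of the 6 fits that left out 1 more library, and Mmp24 in 4 of 6. Scaled by library totals alone, neither passed (edgeR adjusted p = 0.0546 for Mmp24 and 0.166 for Mmp15), nor did Mmp15 with totals without mitochondrial genes (0.0837).

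Of 19 ADAM and ADAMTS genes, Adamtsl4 rose by 1.56 ± 0.25 on the log2 scale without MPS 14 (edgeR adjusted p = 0.0131), with 83.2 and 85.6 CPM in MPS 10 and 11, against 22.6 to 49.2 CPM in NC. Its product is an ADAMTS-like protein that binds fibrillin and has no protease domain. Adamts12 stood at -1.11 (edgeR adjusted p = 0.0902). Of 19 matrix substrates, Dcn (decorin, a collagen-binding proteoglycan) fell by 1.57 ± 0.37 on the log2 scale (edgeR adjusted p = 0.0476). It stood at 191 and 173.7 CPM in MPS 10 and 11, against 463.4 to 835.7 CPM in NC. Of the 19, 13 were lower, where 51.8% of all genes tested were. Fibrillin-1 (Fbn1) stood at -1.25 (edgeR adjusted p = 0.0766) and Reck, a membrane-bound metalloproteinase inhibitor, at -1.08 (0.149). Dcn passed in none of the 6 fits that left out 1 more library, and Adamtsl4 in 3 of 6. Adamtsl4 did not pass when scaled by library totals alone (edgeR adjusted p = 0.0694), nor did Dcn without the robust estimate of spread (0.0524). With MPS 14, at 5.06 CPM of Adamtsl4 and 407.9 CPM of Dcn, no gene of any list passed in edgeR. No cathepsin or cystatin of 13, no growth factor gene of 13 and no AP-1 or ETS factor of 14 passed, at medians of -0.10, -0.10 and 0.17.

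The comparison of TZG with MPS asks whether drug-labelled muscle differs from pain-labelled muscle. No member of 8 passed in edgeR (0% of 13535 genes did), 2 had an unadjusted p under 0.05, as had 700 of all genes tested, and DESeq2 and limma-voom called 0. Mmp2 was the 1 member whose groups did not overlap, at 61.7, 56.7 and 101.3 CPM in TZG 26, 27 and 43, against 50.4, 31.5 and 41.5 CPM in MPS 10, 11 and 14. All 3 TZG libraries lay above all 3 MPS libraries, which 5.31% of all genes tested did in one direction or the other. The level was 2.46-fold higher in TZG with an SE of 0.40 on the log2 scale (edgeR adjusted p = 0.780), and the log2 fold change was 1.05 ± 0.36 without MPS 14 (0.979), where 0.00729% of genes passed and 15.7% did not overlap. Fibroblast markers were also higher in TZG than in MPS 10 and 11, at 1826.0, 2155.9 and 4968.6 CPM against 1384.1 and 1315.9 CPM. MPS 14 had 3418.2 CPM, above TZG 26 and 27. As log2 of normalised CPM over the NC mean, MPS 14 stood at -0.70, below TZG 26 and 27 at -0.50 and -0.41. Mmp2 as a share of the fibroblast sum overlapped, at 3.38%, 2.63% and 2.04% in TZG 26, 27 and 43, against 3.64% and 2.395% in MPS 10 and 11, with 1.21% in MPS 14. The part of fibroblasts in the Mmp2 difference was not tested.

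Plau stood at 20.7, 25.1 and 10.4 CPM in TZG 26, 27 and 43, against 11.7, 13.9 and 15.2 CPM in MPS. TZG 26 and 27 lay above every MPS library and TZG 43 below them; in normalised CPM TZG 43 fell inside the MPS range, at 15.0 against 8.60 to 16.2. The log2 fold change was 0.85 ± 0.30 with MPS 14 and 0.65 ± 0.26 without it, at edgeR adjusted p of 0.780 and 0.979. Mmp14 stood at 3.56, 6.68 and 25.8 CPM in TZG, against 8.36, 5.06 and 15.8 CPM in MPS, and its log2 fold change of 1.02 ± 0.66 (edgeR adjusted p = 0.789) turned to -0.45 without TZG 43. Without MPS 14 the log2 fold change of Mmp14 was 1.13 ± 0.77 (edgeR adjusted p = 0.979). The other 5 members overlapped too, with log2 fold changes of -0.40 to 0.65, and of -0.73 to 0.16 without MPS 14.

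TZG against NC shares its NC libraries with MPS against NC, so the lower values in both are not independent. edgeR passed no member of 8 (0% of 13535 genes), an unadjusted p under 0.05 was seen for 2 members and for 744 of all genes tested, and DESeq2 and limma-voom called 0. Plau, at 20.7, 25.1 and 10.4 CPM in TZG, against 33.5 to 47.2 CPM in NC, had a log2 fold change of -0.77 ± 0.28 (edgeR adjusted p = 0.879). Over 17 alternative fits, by edgeR, DESeq2 or limma-voom, the lowest adjusted p of Plau was 0.115. Timp1 stood at 6.73, 8.18 and 3.05 CPM in TZG, against 11.1, 18.5, 50.3 and 10.4 CPM in NC, with a log2 fold change of -1.49 ± 0.54 (0.865), or -0.87 without NC 6. Timp3 stood at 29.4, 56.9 and 18.4 CPM in TZG, against 62.3 to 99.4 CPM in NC, with -0.97 ± 0.46 (edgeR adjusted p = 0.879). These 3 of 8 members did not overlap between TZG and NC, all lower in TZG, where 17.4% of all genes did not overlap.

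The remaining members overlapped between TZG and NC. Plat stood at 50.3, 44.5 and 11.5 CPM in TZG, against 55.0 to 61.3 CPM in NC, which overlapped once TMM-normalised. Serpine2 stood at 83.9, 82.5 and 37.6 CPM, against 90.9 to 139 CPM, and also overlapped once normalised (log2 fold change -0.39 ± 0.57; edgeR adjusted p = 0.944). Mmp2 had a log2 fold change of 0.19 ± 0.37 that turned to -0.29 under scaling by library totals alone, and Plaur one of 0.26 ± 0.52 that turned to -0.14. Mmp14 stood at 1.15 ± 0.61 (edgeR adjusted p = 0.879) and at -0.32 without TZG 43. The FPKM ratio of Plau to Plaur was 4.57, 4.25 and 5.34 in TZG, below the lowest NC library, NC 6, at 5.51. TZG 43, the nearest to NC 6, had 22 counts of Plaur, too few to tell 5.34 from 5.51. The FPKM ratio of Plau to Serpine2 was 0.381, 0.470 and 0.427 in TZG, against 0.523 to 0.569 in NC. Ratios were chosen after the levels had been seen and were not tested.

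TZG 43 decided the direction of Mmp14 and differed from TZG 26 and 27 in most members. It had the lowest Plau, Plaur, Plat, Serpine2, Timp1 and Timp3 and the highest Mmp2 and Mmp14 of the 3 TZG libraries. The FPKM ratio of Mmp14 to Timp3 was 0.0868, 0.0842 and 1.01 in TZG 26, 27 and 43, against 0.0547 to 0.0771 in NC. In TZG 43, fibroblast markers summed to 4968.6 CPM, against 1826.0 and 2155.9 CPM in TZG 26 and 27. Of that sum, Col1a1 made up 1899.2 CPM and Col3a1 1380.8 CPM, while Pdgfra stood at 14.4 CPM, against 13.3 and 12.3 CPM in TZG 26 and 27. Endothelial markers summed to 175.4 CPM in TZG 43, against 704 and 943.1 CPM in TZG 26 and 27. The mitochondrial share was highest in TZG 43 too, at 38.6%, against 18.7% and 25.4%. Whether these differences have a part in the member values of TZG 43 was not tested.

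**Figure D4:**
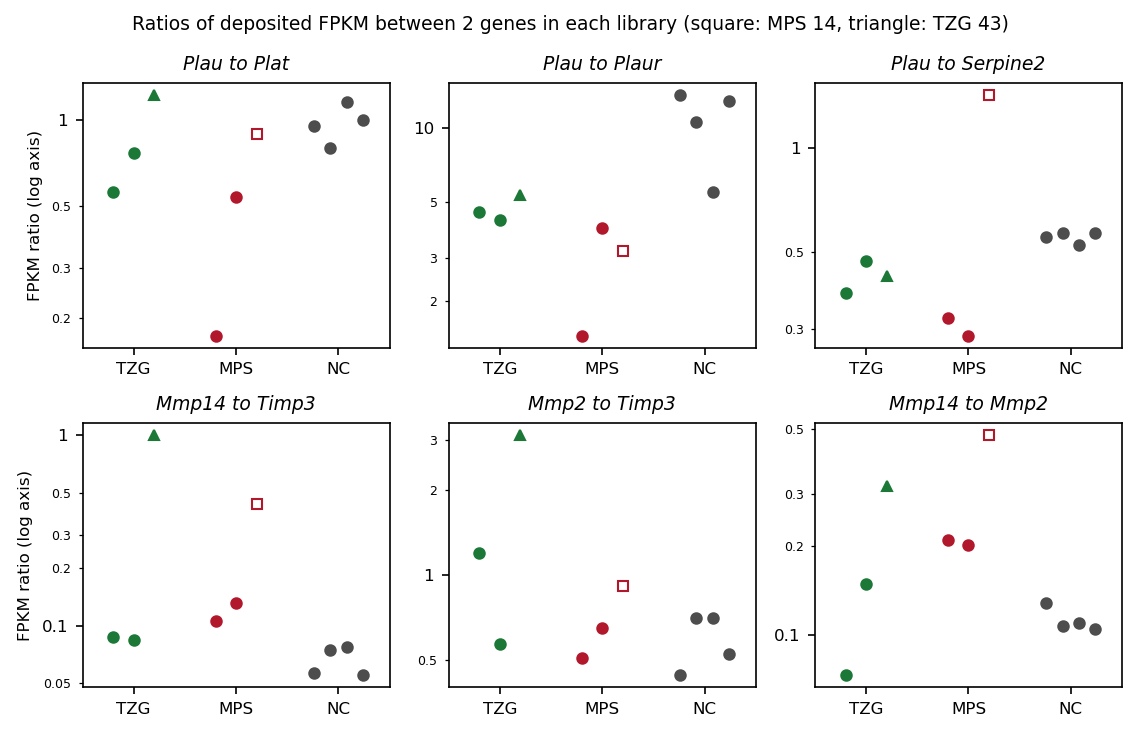
Ratios of deposited FPKM between 2 members (vertical log axis) in each TZG, MPS and NC library, with MPS 14 as an open square and TZG 43 as a triangle. Plau to Plaur lies between 1.46 and 5.34 in the TZG and MPS libraries and between 5.51 and 13.5 in NC, and Mmp14 to Timp3 reaches 1.01 in TZG 43 and 0.436 in MPS 14.

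Across the 9 libraries other than MPS 14, Plau's pattern was most like that of Tmem181, Rmc1, Entpd1, Ackr4 and Doc2b among 11237 named genes (Pearson r of log2 normalised CPM 0.963, 0.960, 0.949, 0.946 and 0.941). Entpd1, an enzyme that breaks down extracellular ATP, stood at 21.5, 25.97 and 10.9 CPM in TZG and 18.7 and 14.4 CPM in MPS 10 and 11, against 44.5, 40.6, 49.2 and 56.5 CPM in NC. Of the members, Serpine2 was the nearest to Plau at r = 0.878, ranking 68 of all genes compared. Plaur and Mmp14 did not follow Plau, with weak negative r of -0.264 and -0.404, ranking 7425 and 8362. These values describe 9 libraries that fall into 3 groups and share their scaling.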

How the data were processed

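Per the labels' protocols, muscle RNA was isolated with RNeasy columns and made into libraries with SMARTER mRNA-Seq chemistry. The authors deposited whole-number counts and FPKM per gene and library, per the file headers, and for their own comparisons a log2 fold change with its p-value and q-value. Tools listed in the submitters' processing notes, with no role given, are HISAT2, fastp, edgeR 3.30.3 and StringTie 1.3.3b; the genome build and how reads shared between genes were counted are not given in the sources used here. The 2 deposited tables were identical, and 1 was used. In 100% of values of 50 or more counts, FPKM matched counts over gene length and total within 0.1%.

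Counts were fitted in R 4.3.3 with edgeR 4.0.16: filterByExpr, TMM factors, and a robust quasi-likelihood fit of all 10 libraries, or of 9 without MPS 14, with 3 groups. A gene passed at a two-sided p under 0.05 after Benjamini-Hochberg adjustment across the fitted genes; the SE was derived from the F statistic. DESeq2 1.42.0 and limma 3.58.1 served as alternatives. The fits were tested on simulated data. Members, the 9 pathway lists (of 145 entries, 141 matched) and 12 marker lists were chosen with earlier results of these data known, as was leaving out MPS 14. Beyond the members, the text names up to 4 genes per list with the smallest p and the 5 genes most like Plau. Within groups, no 2 libraries agreed within sampling noise (chi-square per gene at least 28.1). Figures used Python 3.11.15 and matplotlib 3.10.9.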

Additional observations from a re-analysis of the deposited data

Results flagged for a closer look

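Plaur in NC 6 stood at 6.85 CPM, far from the other 3 NC libraries at 2.36 to 2.82 CPM: the gap to the next library took 0.896 of the range of the 4 NC values, above Dixon's critical value for a group of that size. It was the 1 member of 9 to stand out this way, and chance gives such a gap in about 1 of 20 groups. NC 6 also held the highest Timp1 (50.3 CPM) and summed macrophage markers (614.8 CPM, against 271.7 to 439.4 CPM in the other NC libraries); their part in the Plaur value was not tested.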

How the results depend on the processing

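With all libraries, DESeq2 called 205 genes for MPS against NC, 1 of them a member; without MPS 14 it called 1100. In that fit without MPS 14, library totals alone gave 64 genes, totals without mitochondrial genes 205, and the fit of the 2 groups alone 1277 with 2 members. For TZG against MPS, DESeq2 called 3 genes; without MPS 14 it called 14, no filter 2, and limma-voom and the fit of 2 groups 0. For TZG against NC, DESeq2 called 55, the fit of 2 groups 2 and the shared fit without MPS 14 11. Leaving out each library in turn gave 0 to 362 genes and 0 to 1 members for MPS against NC, 2 to 104 and 0 to 0 without MPS 14, 0 to 1 genes for TZG against MPS and 0 to 2 without MPS 14. Without MPS 14, leaving out MPS 10 or MPS 11 leaves 1 MPS library, assumed to vary like the other groups. The causes were not tested.

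Plau kept its direction in every fit run: -1.86 to -1.41 over 16 fits for MPS against NC, -1.73 to -1.22 over 15 without MPS 14 (9 of 15 with an adjusted p under 0.05, at 4.31e-05 to 0.198), 0.46 to 1.09 with MPS 14 and 0.45 to 0.85 without it in the TZG to MPS comparison, and -1.14 to -0.54 in that of TZG with NC. No member value that turned round had passed. Leaving out single libraries, log2 fold changes ranged, for MPS against NC, over -0.28 to 0.72 (Plaur) and -0.99 to 0.38 (Plat), and without MPS 14 over -0.36 to 0.90 (Plat) and -0.28 to 0.33 (Mmp14). For TZG against MPS they ranged over -0.36 to 0.54 (Plaur), -0.73 to 0.64 (Plat), -0.45 to 1.45 (Mmp14) and -0.22 to 0.82 (Timp3), and without MPS 14 over -0.83 to 0.24 (Plaur), -1.24 to 0.018 (Plat), -0.11 to 0.43 (Serpine2), -0.38 to 1.55 (Mmp14), -0.26 to 0.16 (Timp1) and -0.58 to 0.34 (Timp3). For TZG against NC they ranged over -0.73 to 0.038 (Plat), -0.26 to 0.42 (Mmp2) and -0.32 to 1.59 (Mmp14). Library totals alone, and totals without mitochondrial genes, turned Mmp14 to -0.24 and -0.25 (MPS against NC, no MPS 14). They turned Plaur to -0.14 and -0.10 and Mmp2 to -0.29 and -0.17 where TZG was set against NC. Library totals alone turned Timp3 to -0.076 for TZG against MPS, and limma-voom turned Plaur to 0.12. A robust spread switched off, an alternative added after the data were seen, moved no count by over 1.5 times but ended the call of Dcn. Mmp9, at 0 to 8 counts outside MPS 14, was below what this depth can test.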

Other observations

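In the authors' deposited table, the q-value of Plau for MPS against NC was 0.0554 at a log2 fold change of -1.62. For TZG against NC, the authors' deposited table gave Timp1 a q-value of 0.0837 and Timp3 one of 0.0957. In the authors' deposited table none of the 9 genes had a q-value under 0.05 in any of the 3 comparisons, where 290 features did for MPS against NC, 368 for TZG against NC and 0 for TZG against MPS.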
